A study of Homo sapiens with 18 samples.

Results

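The granins and prohormone processing enzymes were described here as 10 genes, *CHGA*, *CHGB*, *SCG2*, *SCG3*, *SCG5*, *PCSK1*, *PCSK1N*, *PCSK2*, *CPE* and *SCGN*, picked by symbol from the 21944 genes in the table of this experiment. The experiment was bulk RNA sequencing of human pancreatic progenitors at day 19 of differentiation, which were detached and reseeded on laminin-411 (LN411), a low-adhesion laminin isoform, or on fibronectin (FN). Cells were harvested 3, 6 or 24 h after reseeding, giving 6 groups of 3 samples and 18 samples in all, and the labels name no drug or gene deletion in any of them. The labels name the embryonic stem cell line HUES4, while their growth protocol and the study's description of this experiment name an SA121-derived line with a GFP reporter for NEUROG3, and this difference was not resolved. The design asks how LN411 differs from FN at each time. That comparison was not tested here, because the only measurement used was the authors' mean normalized count of each gene, pooled over both matrices and all 3 times. The values below therefore describe how much RNA of each gene these cultures held as a whole, have no replicate error, and say nothing about the effect of LN411.

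Endocrine cells store peptide hormones in dense-core granules. Granins are acidic proteins that are packed into these granules with the hormones and help to form them. Prohormones are cut inside the granules by the convertases encoded by *PCSK1* and *PCSK2*, after which carboxypeptidase E, encoded by *CPE*, trims the basic residues that remain at the cut ends. Neurons and neuroendocrine cells of other organs use the same machinery, and many of its genes serve as general markers of endocrine differentiation in the pancreas.

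The cultures held these genes at levels that differed by more than 3 orders of magnitude. Levels were set per kilobase of the longest protein-coding transcript, because longer transcripts yield more reads. *CPE* was the highest, with a mean normalized count of 58453 and a level of 22639 per kilobase, and *PCSK2* the lowest, with a mean normalized count of 15.7 and a level of 3.36 per kilobase. The ratio of these levels was 6743, against a ratio of 286.6 between the 90th and the 10th percentile of all genes. *CPE* made up 85.6% of the summed level of the 10 genes and *CHGA* another 8.22%. In bulk RNA, few cells with much of a transcript and many cells with little of it cannot be told apart. A low level may thus stand for a small number of strongly expressing cells. Because the values are pooled, it may also stand for RNA held in only some of the groups.

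**Figure D1:**
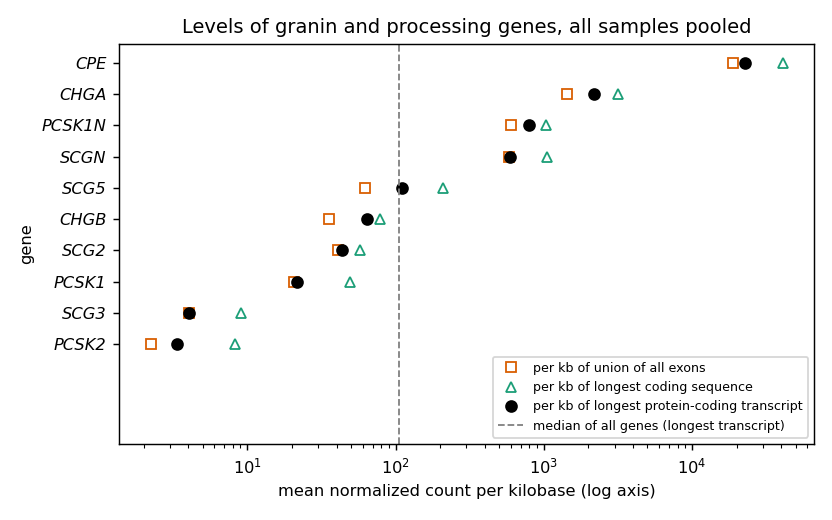
Mean normalized count per kilobase (log axis) for each of the 10 genes, pooled over all 18 samples, with filled circles for the longest protein-coding transcript, squares for the union of all exons and triangles for the longest coding sequence. *CPE* lies at 22639 and *CHGA* at 2172, while *SCG3* and *PCSK2* lie near 4, far below the median of all genes at 105.1 (dashed line).

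The start-site windows of *CHGA*, *PCSK1* and *CPE* are shown because the first pair hold a complete cyclic AMP response element (CRE, TGACGTCA, a site known to bind CREB) although their RNA levels lie far apart, and because *CPE* is the most abundant of the 10 genes. The sequences are those of RefSeq on GRCh38.p14, from 250 bases before the annotated start to 50 bases from it on, written 5′ to 3′ on the gene's own strand. Capitals mark the CRE core TGACG or its complement CGTCA, which overlap within a complete CRE. The *CHGA* window is chr14:92922900-92923199 on the plus strand, that of *PCSK1* is chr5:96433199-96433498 on the minus strand and that of *CPE* is chr4:165378758-165379057 on the plus strand.
CHGA: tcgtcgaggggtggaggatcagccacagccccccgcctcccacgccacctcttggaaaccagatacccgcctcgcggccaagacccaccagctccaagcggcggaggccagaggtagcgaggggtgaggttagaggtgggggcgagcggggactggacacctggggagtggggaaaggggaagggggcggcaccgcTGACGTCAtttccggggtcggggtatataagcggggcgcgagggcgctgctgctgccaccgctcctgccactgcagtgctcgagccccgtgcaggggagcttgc
PCSK1: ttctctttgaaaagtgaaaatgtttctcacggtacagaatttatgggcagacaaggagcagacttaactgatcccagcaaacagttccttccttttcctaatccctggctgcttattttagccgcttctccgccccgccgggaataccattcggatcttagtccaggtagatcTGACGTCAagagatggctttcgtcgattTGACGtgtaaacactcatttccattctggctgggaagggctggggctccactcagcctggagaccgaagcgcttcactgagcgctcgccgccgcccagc
CPE: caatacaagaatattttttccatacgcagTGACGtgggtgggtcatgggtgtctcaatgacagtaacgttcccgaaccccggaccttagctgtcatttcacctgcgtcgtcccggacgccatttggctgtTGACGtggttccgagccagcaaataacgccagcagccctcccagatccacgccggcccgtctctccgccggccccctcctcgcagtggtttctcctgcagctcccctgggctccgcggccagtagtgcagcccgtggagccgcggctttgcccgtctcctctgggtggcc

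The complete CRE lay from base −54 to −47 in *CHGA* and from −77 to −70 in *PCSK1*, counted from the start site, and was held by 1.85% of the 35116 windows of the RefSeq table. *CHGA* stood at the 93.3rd percentile of all genes by RNA level per kilobase and *PCSK1* at the 29.6th. In *CPE*, cores lay at −221 to −217 and at −120 to −116. The start of this *CPE* window lies 17.8 kb inside the annotated span of the gene in GENCODE v44, whose 5′ end belongs to another transcript. The printed *PCSK1* start lies 0.895 kb inside the span of its gene, so that its CRE also lies inside that span. The *CHGA* start is at the 5′ end of its gene.

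RefSeq windows were matched for 8 of the 10 genes, with 2 windows each for *PCSK1* and *PCSK2*, and not for *CHGB* and *SCG2*. All 10 windows equalled the genome sequence at their coordinates. Counted by window, a CRE core on either strand was found in 7 of these 10, which belong to 6 genes, against 24.6% of all windows. An E-box (CANNTG), the kind of site that bHLH factors bind, was found in 6 of the 10 windows, against 68.7% of all windows. The E-box CAGATG was found in 0 of the 10 windows, against 14.7% of all, where either strand was searched. The TATA motif TATAAA, searched on either strand, stood in 1 window, against 11.5% of all. It lay from −28 to −23 at the *PCSK1* start downstream of the one printed. Variants of this motif were not searched for, and the printed *CHGA* window holds the letters tatataag upstream of its start. CCAAT, also searched on either strand, was found in 3 of the 10 windows, against 34.6% of all. Each of these matches lay on the strand opposite to the gene. The G and C content of the windows ranged from 51.7% in the printed *PCSK1* window to 72.7% in the second *PCSK2* window, with a median of 61.5% against 58.7% for all windows. Observed over expected CpG (C followed by G) had a median of 0.7185 in these 10 windows against 0.5791 for all windows. The CRE core contains a CpG, and its share was not adjusted for this difference. These matches describe letters in the windows and were not related to the RNA levels by any test.

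**Figure D2:**
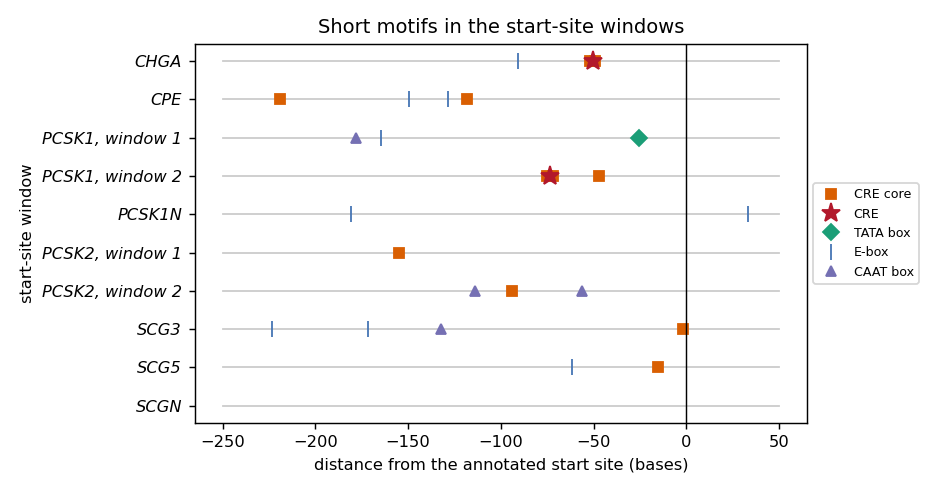
Positions of short motifs in the 10 start-site windows of 8 genes, from 250 bases before to 50 bases after the annotated start (x axis, bases), with a grey line for each window and a symbol for each motif. Stars mark the complete CRE in *CHGA* and in the second *PCSK1* window, and no motif of the search lies in the *SCGN* window. The TATA box and CAAT box symbols mark the letters TATAAA and CCAAT only, on either strand.

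Among the 4 classical granins of the list, *CHGA* was the most abundant. *CHGA* (ENSG00000100604, chromosome 14 of GRCh38, 92923150 to 92935285) encodes chromogranin A, the classical granule marker and the precursor of several peptides. Its mean normalized count of 4312 corresponded to 2172 per kilobase, or 20.7 times the median of all genes. *CHGB* (ENSG00000089199, chromosome 20, 5911510 to 5925353) encodes its relative chromogranin B and had a mean normalized count of 159.1, or 64.6 per kilobase. The *CHGA* level was thus 33.6 times that of *CHGB*, and between 33.6 and 40.2 times over the 4 ways of measuring length.

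*SCG2* (ENSG00000171951, chromosome 2, 223596940 to 223602361) encodes secretogranin II, the precursor of secretoneurin. Its mean normalized count was 106.3 and its level 43.7 per kilobase, at the 39.2nd percentile. *CHGB* exceeded *SCG2* by a ratio of 1.48, which became 0.868 with the union of all exons as the length, so that the order of this pair was not settled. *SCG3* (ENSG00000104112, chromosome 15, 51681492 to 51721026) encodes secretogranin III, which binds chromogranin A and anchors it to the granule membrane. Its mean normalized count was 12.8 and its level 4.06 per kilobase, at the 7.07th percentile, so that *CHGA* exceeded its binding partner by a ratio of 534.8, or of 344 to 534.8 over the length choices.

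*SCG3* was also the only one of the 10 genes that the table did not list at every time, with rows at 24 h but not at 3 or 6 h. The other 9 genes were listed at all 3 times. Of the 2323 genes with a mean normalized count from 10 to 20, 70.0% were listed at all 3 times, and of the 14583 genes at 50 or more, 99.9% were. *PCSK2*, at 15.7, was listed at all times. The absence of a row is therefore common at the level of *SCG3* and does not show an absence of RNA.

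**Figure D3:**
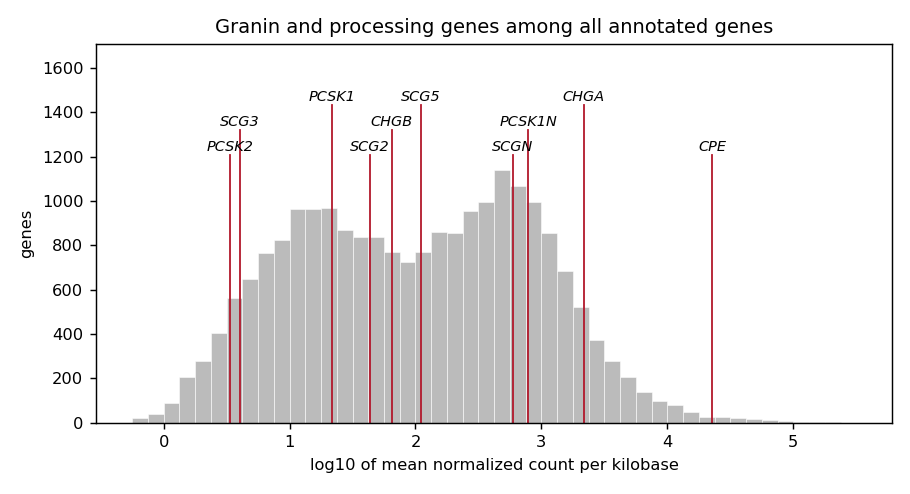
Number of genes (y axis) by the log10 of their mean normalized count per kilobase (x axis), for the 21861 genes with an annotated length, with a red line for each of the 10 genes. *CPE* lies at the upper end, *CHGA* above the 90th percentile, and *SCG3* and *PCSK2* at the lower end.

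The 2 granin-like chaperones and inhibitors of the convertases were more abundant than the enzymes they bind. *PCSK1N* (ENSG00000102109, chromosome X, 48831096 to 48835610) encodes proSAAS, an inhibitor of the enzyme made from *PCSK1*. It had a mean normalized count of 808.6 and a level of 788.9 per kilobase, at the 80.6th percentile, which was 36.4 times the level of *PCSK1*. *SCG5* (ENSG00000166922, chromosome 15, 32641676 to 32697098) encodes 7B2, a chaperone that the enzyme made from *PCSK2* needs to mature. Its mean normalized count of 135.7 corresponded to 109.9 per kilobase, which was 32.7 times the level of *PCSK2*. Over the length choices, the ratio for *PCSK1N* and *PCSK1* lay between 21.0 and 36.4, and that for *SCG5* and *PCSK2* between 25.5 and 32.7. *SCG5* lay at the 50.6th percentile of all genes, but at the 31.2nd with coding length and the 33.7th among protein-coding genes, so that its place near the median held for some settings only. In GENCODE v44, 51.4% of the exonic bases of *SCG5* are shared with the readthrough gene *ARHGAP11A-SCG5* on the same strand, and reads that fall into more than 1 gene are left out by the counting of STAR. *ARHGAP11A-SCG5* was not among the genes listed, and whether GENCODE v32, used for the counting, held it was not checked. Whether the overlap lowered the value of *SCG5* was not tested.

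Both neuroendocrine convertases were low. *PCSK1* (ENSG00000175426, chromosome 5, 96390333 to 96434143), whose product makes the early cuts in prohormones such as proinsulin, had a mean normalized count of 111.4. This count corresponded to 21.7 per kilobase, since its longest transcript has 5136 bases, and lay at the 29.6th percentile. *PCSK2* (ENSG00000125851, chromosome 20, 17226107 to 17484578), whose product is needed to release glucagon from proglucagon, lay at the 5.39th percentile. The *PCSK1* level was 6.46 times that of *PCSK2*, and 5.99 to 9.28 times over the length choices. *PCSK2* and *SCG3* differed by a ratio of 1.21 and kept this order in each of the 4 length choices, while the counts not divided by length had the opposite order.

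The convertases that most cells use in the general secretory pathway stood higher. *FURIN*, the ubiquitous convertase of the Golgi, had a level of 2150 per kilobase, which was 99.2 times that of *PCSK1* and 640.5 times that of *PCSK2*. The 7 other convertases ranged from *PCSK6* at 32 per kilobase to *MBTPS1* at 2693, and 5 of them were above the median of all genes. All 7 exceeded both *PCSK1* and *PCSK2* in level per kilobase, or 6 of them with the union of all exons as the length.

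*CPE* (ENSG00000109472, chromosome 4, 165361194 to 165498547) was the 99th most abundant of the 21861 genes with an annotated length, at the 99.6th percentile. Its level was 10.4 times that of *CHGA* and 1044 times that of *PCSK1*, and these ratios lay between 10.4 and 13.1 and between 830.2 and 1044 over the length choices. It was 4.56 times the level of *PDX1*, the transcription factor that marks pancreatic progenitors, or 2.69 to 4.56 times over the length choices, while *GP2*, a surface marker of the same cells, exceeded *CPE* by a ratio of 1.80. *CPD*, a related carboxypeptidase of the Golgi, had a level of 4795 per kilobase, and *CPE* exceeded it by a ratio of 4.72. *PAM*, which amidates the ends of many peptide hormones, had a level of 4509 per kilobase. In the list of other carboxypeptidases with *PAM*, all 6 genes in the table were above the median of all genes, with *CPXM2* the lowest at 257.2 per kilobase, and *CPZ* was not analysed here.

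*SCGN* (ENSG00000079689, chromosome 6, 25652201 to 25701783) encodes secretagogin, a calcium-binding protein of the cytosol of endocrine cells, and its product, unlike a granin, is not packed into granules. Its mean normalized count of 868.0 corresponded to 591.3 per kilobase, at the 75.8th percentile. *PCSK1N* exceeded it by a ratio of 1.33, and this order turned around per kilobase of coding sequence. In GENCODE v44, 60.5% of the exonic bases of *SCGN* are shared with the protein-coding gene ENSG00000290217 on the same strand. That gene was not among the genes listed, and whether GENCODE v32, used for the counting, held it was not checked. The effect of the overlap on the *SCGN* count was not tested.

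Of the 10 genes, 5 lay above the median level of all genes, and 2, *CPE* and *CHGA*, lay above the 90th percentile. With the longest coding sequence as the length, *CHGA* lay at the 81.8th percentile. The number above the median fell to 4 in each of 5 other settings of length or gene set, which left out *SCG5*. The median level of the 10 genes was 87.3 per kilobase, against 105.1 for all 21861 genes. Of the further granin family genes, *VGF* had a level of 56.4 per kilobase and *GNAS* of 14506, where *GNAS* also encodes the G protein subunit that most cells make.

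The hormone genes that this machinery serves were mostly low as well. Of 12 islet and gut hormone genes, 10 were in the table and 3 were above the median of all genes. *INS* had a level of 13 per kilobase and *GCG* of 14.5, so that *CHGA* exceeded them by ratios of 166.8 and 149.4. Over the length choices these ratios lay between 112.4 and 166.8 and between 104 and 207.5. The mean normalized counts were only 8.32 for *INS*, listed at 1 time, and 16.3 for *GCG*, listed at 2 times. *SST*, which encodes somatostatin, had a level of 957.7 per kilobase, and *NTS*, which encodes neurotensin, of 2613. The lowest was *CCK*, at 3.87 per kilobase, and *PPY* and *TAC1* were not analysed here.

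Among 16 genes of the secretory granule membrane and its docking machinery, 11 were above the median of all genes and 0 were above the 90th percentile. *VAMP2*, a granule SNARE protein of many cell types, was the highest at 981.4 per kilobase. *SLC30A8*, the zinc transporter of insulin granules, was the lowest at 5.27, and *PTPRN*, a granule membrane protein, lay at 21.5, next to *PCSK1*. The 14 endocrine transcription factors ranged from *ST18* at 2.19 per kilobase to *RFX6* at 1888, and 4 of them were above the median of all genes. *NEUROG3*, which starts endocrine specification, had a level of 289.0. *REST*, a repressor of granin and other neuronal genes outside neurons, had a level of 871.0 per kilobase, *RCOR1*, its partner, of 483.5 and *HES1*, a Notch effector, of 5111.

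**Figure D4:**
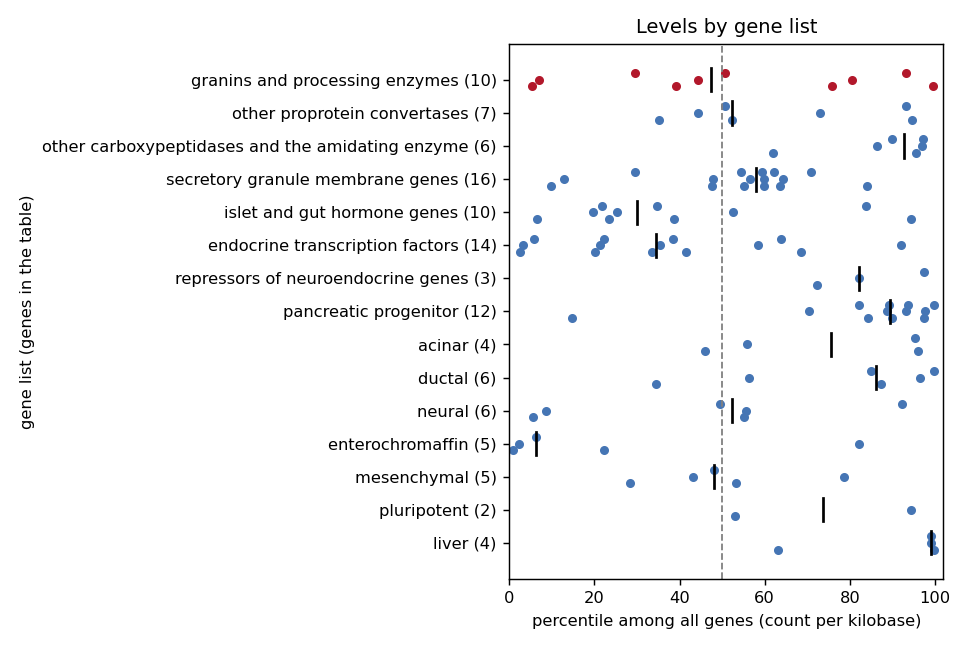
Percentile of each gene among all genes by count per kilobase (x axis), with a point for each gene, a black bar for the median of each list, and the number of genes in the table in brackets. The 10 granin and processing genes (red) spread from the 5.39th to the 99.6th percentile, with a median of 47.5, while the pancreatic progenitor markers have a median of 89.5.

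The labelled cell type was checked against its markers in the same pooled values. Of 12 pancreatic progenitor markers, 11 lay above the median of all genes, with *SOX9* at 5259 per kilobase, *PDX1* at 4969 and *NKX6-1* at 875.5, and *PTF1A* was the exception at 8.10. Markers of other cells were not low throughout. All 4 liver genes lay above the median, with a median percentile of 99.1 against 89.5 for the progenitor markers, and *TTR*, at 69415 per kilobase, *APOA1*, at 12507, and *AFP*, at 10996, exceeded *PDX1* and *SOX9*. Of 6 ductal genes, 5 lay above the median, with *KRT19* at 37998. The progenitor marker *GP2*, at 40743, exceeded *APOA1*, *AFP* and *KRT19* but not *TTR* with the longest protein-coding transcript as the length. With the union of all exons as the length, *GP2* was 1.79 times *CPE* and *CPE* was 0.712 times *TTR*, so that *GP2* exceeded *TTR*. The order of *GP2* and *KRT19* was not compared over the length choices. The lowest liver gene was *ALB*, at 280.0, and the lowest ductal gene *KRT7*, at 30.4. The levels of these lists thus overlapped, and which cell types the cultures held was not tested. Markers of other cells that use granins were mixed. Of 6 neural genes, 3 were above the median, with *NEFM* at 1919 per kilobase and *ELAVL3* at 3.38. Of 5 enterochromaffin genes, only *DDC* was above the median, at 864.1 per kilobase, while *TPH1*, which makes serotonin in gut endocrine cells, lay at 3.77 and *LMX1A* at 1.39. Which cells of the cultures held the *CPE* and *CHGA* RNA was not tested.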

How the data were processed

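Pancreatic progenitors were profiled by poly(A) RNA sequencing. According to the methods and the submitters' processing notes, the authors aligned reads with STAR 2.7.2d to GRCh38, counted them per gene with GENCODE v32, and normalized and compared groups with DESeq2 1.34.0. Whether counting used the strand is not given in the sources used here. The deposited mean normalized count is a signal, made by the authors from size-factor scaled counts and pooled over the 18 samples. It was equal at each time a gene was listed, with a largest relative gap of 4.89e-07, and summed to 53217583 over all genes. The other 5 numeric columns hold the authors' log2 fold changes, standard errors, test statistics, p-values and adjusted p-values. They were not used. The planned edgeR test of LN411 against FN needs counts of single samples and was not run, and the depth of single samples is unknown.

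Counts were divided by the length of the longest protein-coding transcript of GENCODE v44, or of the longest transcript for other genes, matched by Ensembl identifier for 21861 of 21944 genes. Percentiles were taken over these genes. Lists were an account of levels without tests: other granins, convertases, carboxypeptidases, granule membrane, hormones, endocrine factors, repressors, and markers of progenitor, acinar, ductal, neural, enterochromaffin, mesenchymal, pluripotent and liver cells. From each, the highest, the lowest and a few further genes are named. The members and lists were chosen with earlier results of these data known. *VGF*, *REST*, *NEUROG3*, *INS*, *GCG*, *SST*, *FURIN*, *PAM*, *PTPRN*, *NKX6-1*, *PDX1*, *SOX9*, *APOA1*, *AFP* and *TPH1* are named in addition to that rule, after their values were seen. The code for ranks, length division and the search for the complete CRE was run on simulated data. The simulated counts were made with the same lengths that were divided out, so that only the arithmetic was tested. The CRE was planted in windows of A and T only, and the searches for the other motifs were not tested. Python 3.11.15, numpy 2.4.6, pandas 2.3.3 and matplotlib 3.10.9 were used. Some genes are not reported here.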

Additional observations from a re-analysis of the deposited data

How the results depend on the processing

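No paired analysis was possible because the values used are pooled over all samples and carry no replicate number, and no sample could be left out for the same reason. The other fits set out for the LN411 against FN test were not run. Because the values have no replicate error, a level or percentile was taken as moved where it changed by more than 1.5 times. With the union of all exons as the length, the level per kilobase moved to 1426 for *CHGA*, 61.8 for *SCG5* and 35.8 for *CHGB*. With the longest coding sequence, taken from GENCODE v44 in place of the planned RefSeq proteins, it moved to 40933 for *CPE*, 1048 for *SCGN*, 209.4 for *SCG5*, 49.3 for *PCSK1*, 9.14 for *SCG3* and 8.23 for *PCSK2*. The longest transcript of any type moved 0 of the 10 levels. Among genes listed at all 3 times, the percentile moved to 19.2 for *PCSK1* and 1.5 for *PCSK2*, and *SCG3* could not be ranked. Among genes whose mean normalized count reached 10, it moved to 2.61 for *SCG3* and 1.68 for *PCSK2*. After the data were seen, protein-coding genes alone were ranked, which moved *CHGB* to 27.8, *SCG2* to 24.1 and *PCSK1* to 17.9, and so were levels per kilobase of coding sequence, which moved *SCG5* to 31.2, *CHGB* to 22.2, *SCG2* to 19.5 and *PCSK1* to 18.1. The rule of 1.5 times is less sensitive for high percentiles than for low ones. Per kilobase of coding sequence, the percentile fell from 93.3 to 81.8 for *CHGA* and from 80.6 to 59.0 for *PCSK1N*. That of *SCGN* fell from 75.8 to 59.2, and none of these falls counted as moved. The number of the 10 genes above the median of all genes was 4 under each of the 5 alternatives, since *SCG5* fell below it. In the order of the 10 genes, 12 of 40 places moved, 8 of them with counts not divided by length. *CPE* and *CHGA* kept the top places throughout. Without values of single samples, the depth limits cannot be set.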

Other observations

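Other cell type markers were read from the same pooled counts, as values per kilobase with no test. The lowest of the ductal genes was *KRT7* at 30.4, and the lowest of the liver genes was *ALB*, the main plasma protein, at 280.0. Of 7 acinar genes, 4 were in the table, from *CPA1* at 74.2 to *PRSS2* at 3525, and 3 were above the median of all genes. *AMY2A*, *CTRB1* and *PNLIP* were not analysed here. Of 6 mesenchymal genes, 5 were in the table, from *PDGFRB* at 20 to the collagen gene *COL1A1* at 691.7, and 2 were above the median. *DCN* was not analysed here. Of 4 pluripotency genes, *DPPA4* lay at 134.3 and *LIN28A* at 2599, and *POU5F1* and *NANOG* were not analysed here. The level of *NTS* was 2.73 times that of *SST*, and 2.17 to 3.8 times over the length choices, so that these were the most abundant hormone genes of the list.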
